A study of Mus musculus with 45 samples.

Results

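The liver X receptors and 8 of their reported target or lipid partner genes were followed in mouse forelimb buds exposed to bisphenol AF (BPAF), a fluorinated analog of bisphenol A. The set held 10 of the 35272 genes in the joined count tables: the receptor genes Nr1h2 and Nr1h3, the lipid exporters Abcg1 and Abca1, the transcription factor gene Srebf1, and Mylip, Apoe, Lpcat3, Scd1 and Scd2. They were found by gene symbol, each symbol matched a single gene identifier, and all 10 passed the low-count filter in every comparison. Abcg1 led to this choice of genes because it was called at the low dose, so its differences at 1 µM are given as a description without a test.

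Liver X receptors are nuclear receptors that pair with retinoid X receptors on DNA and are switched on by oxysterols, which are oxidised forms of cholesterol. In macrophages and liver they are known for raising genes that move cholesterol out of cells, limit its uptake and start fatty acid synthesis. Without a ligand the receptors can hold some of the same genes low through corepressors.

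Messenger RNA was sequenced from forelimb buds of CD1 mouse embryos taken at gestation day 13. By the labels, buds of male and female embryos were pooled in culture bottles and kept for 3, 24 or 48 h with the solvent DMSO, 1 µM BPAF or 5 µM BPAF, with 5 libraries in each of the 9 groups. The labels name no mutation or transgene. They do not tell whether the libraries of a group came from separate litters or days, and the p-values therefore rest on a spread that may be partly technical. In the labels' treatment text the compound is once called bisphenol A, but BPAF is named everywhere else and is used here.

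Library totals lay between 14901842 and 25154115 reads. Tbx5, which marks the forelimb, was between 200 and 309 CPM, a read count scaled to library size, in the 45 libraries, while Pitx1, which marks the hindlimb, was between 1.56 and 7.85 CPM and Tbx4, another hindlimb gene, between 17.3 and 29.4 CPM. Replicate 5 of the 3 h group at 1 µM has a conflicting label for compound and dose, so the main values resting on it are also given without it. For replicates 1 and 2 of 1 µM at 48 h, title and library code are swapped, and the title was used. Control 3 h replicate 3, 1 µM 3 h replicate 1 and 1 µM 48 h replicate 2 had summed Y-linked reads of 0.1, 0.47 and 0.16 CPM, against 53.4 to 321 CPM in the other libraries, which goes against the label of both sexes. Replicate 5 of 5 µM at 24 h and replicate 5 of the 24 h controls had the most haemoglobin reads of that time.

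Levels are CPM after scaling library sizes by the trimmed mean of M-values (TMM). Fold changes are log2 values with their standard error (SE) from edgeR's quasi-likelihood test, and called genes are those whose p, adjusted by Benjamini-Hochberg over all genes tested, was under 0.05. The tissue is a mixture of cell types, and fewer cells of a type cannot be told apart from less RNA per cell.

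Per kilobase of gene model, Scd2 was the most abundant of the 10 genes in 24 h controls, at 243.1 ± 15.5 CPM per kilobase (SD, n = 5), followed by Apoe at 109.8 ± 15.6. Nr1h2, Mylip and Srebf1 came next at 25.5 ± 2.33, 25.1 ± 1.66 and 23.8 ± 0.88 CPM per kilobase, and did not differ beyond their spread. Scd1 and Lpcat3 lay together at 16.6 ± 1.38 and 15.3 ± 0.663 CPM per kilobase, above Abca1 at 12.8 ± 1.00. Abcg1 was lower, at 6.16 ± 0.351 CPM per kilobase, and Nr1h3 was the lowest at 1.68 ± 0.115. Both receptor genes were thus detected, with far more reads for Nr1h2, the gene of liver X receptor beta, than for Nr1h3, the gene of liver X receptor alpha.

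The promoters of Abca1 and Srebf1 are shown because both genes were lower with BPAF and both are textbook sites of receptor binding. The sequences are the 250 bases before a RefSeq transcript start on build GRCm38.p6, the assembly also called mm10. Capitals mark a match to a direct repeat known from these promoters, GGTTA and CGGTCA with 4 free bases between them, which here reads on the opposite strand as TGACCG, 4 free bases and TAACC. Both genes lie on the minus strand, and the sequences run 5′ to 3′ on it.
Abca1, chr4:53159896-53160145: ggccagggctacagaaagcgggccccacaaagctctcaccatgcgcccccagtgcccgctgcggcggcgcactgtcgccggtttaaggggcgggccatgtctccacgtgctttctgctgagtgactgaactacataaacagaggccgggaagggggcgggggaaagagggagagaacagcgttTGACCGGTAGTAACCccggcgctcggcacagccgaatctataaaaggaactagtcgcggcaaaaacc
Srebf1, chr11:60210472-60210721: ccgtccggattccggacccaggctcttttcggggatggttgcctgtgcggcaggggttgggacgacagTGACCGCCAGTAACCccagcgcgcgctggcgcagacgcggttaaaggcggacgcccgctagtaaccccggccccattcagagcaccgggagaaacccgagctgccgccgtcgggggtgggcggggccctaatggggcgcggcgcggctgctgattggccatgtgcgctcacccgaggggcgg

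The match lay 67 to 53 bases before the start in Abca1 and 182 to 168 bases before an internal start in Srebf1. On either strand the motif was in 4 of 32851 RefSeq promoter windows of 300 bases, or 0.0122%. The other matches were in Fasn, which makes fatty acids, and Prrg4. The motif was chosen with these promoters known, so its presence in Abca1 and Srebf1 is no finding. The consensus form, AGGTCA repeated after 4 free bases, was in 0.0152% of windows on either strand and in no window of the 7 followed genes that the promoter table held. A match is a run of letters and does not show that a receptor binds there.

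In the control buds most of these genes rose with time in culture, which sets the levels that BPAF was compared with. Between 3 and 24 h, 8 of the 10 genes rose, where 19.1% of the 16481 genes tested rose. The receptor genes were the exceptions, with Nr1h2 at a log2 difference of -0.002 ± 0.07 (SE; edgeR adjusted p = 0.985) and Nr1h3 at 0.30 ± 0.17 (edgeR adjusted p = 0.184). The median log2 difference of the 10 was 0.40, beside -0.01 for all genes. Abcg1 is among the genes that rose, and the 24 h controls are those on which it was picked.

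Apoe, which encodes a lipoprotein that accepts and carries cholesterol, showed the steepest course of the 10. Its level averaged 82.5 ± 9.87 CPM in controls at 3 h, 234.8 ± 33.4 CPM at 24 h and 496 ± 62.5 CPM at 48 h (SD, n = 5 each). Between 24 and 48 h it was the one gene of the 10 that was called, at a log2 difference of 1.07 ± 0.10 (SE; edgeR adjusted p = 2.86e-06), where 9.71% of genes rose. Over the whole span, 48 h against 3 h, 9 of the 10 rose, where 25.6% of genes did. Apoe was higher by 2.60 ± 0.09 on the log2 scale over that span, Abca1 by 0.94 ± 0.10, Scd1 by 0.86 ± 0.07, Abcg1 by 0.68 ± 0.09 and Srebf1 by 0.62 ± 0.05. The rises of Lpcat3 at 24 h and Nr1h3 at 48 h are less secure, with adjusted p = 0.182 and 0.092 once the Y-linked signal was a covariate.

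Abcg1, which encodes a half-transporter that passes cholesterol to lipoproteins, was lower at each BPAF dose and time. At 3 h it had 16.5, 17.6, 16.7, 20.1 and 18.4 CPM in the controls, 15.4, 15.2, 13.2, 14.4 and 11.6 CPM at 1 µM, and 8.98, 8.52, 12.1, 10.1 and 11.7 CPM at 5 µM. Every treated library lay below every control, while the BPAF doses overlapped each other. At 24 h the controls had 23.4, 24.6, 24.5, 27.2 and 25.5 CPM, the 1 µM libraries 16.7, 16.5, 14.7, 14.9 and 15.6 CPM, and the 5 µM libraries 8.81, 7.17, 7.30, 9.93 and 8.50 CPM. At this time the 3 groups formed separate ranges in dose order. At 48 h the controls had 24.4, 28.9, 30.4, 27.1 and 31.1 CPM, the 1 µM libraries 19.5, 17.3, 20.1, 22.8 and 19.8 CPM, and the 5 µM libraries 6.80, 7.96, 11.8, 10.1 and 5.02 CPM. The 3 ranges were again separate, and the 5 µM libraries were spread the most relative to their mean.

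**Figure D1:**
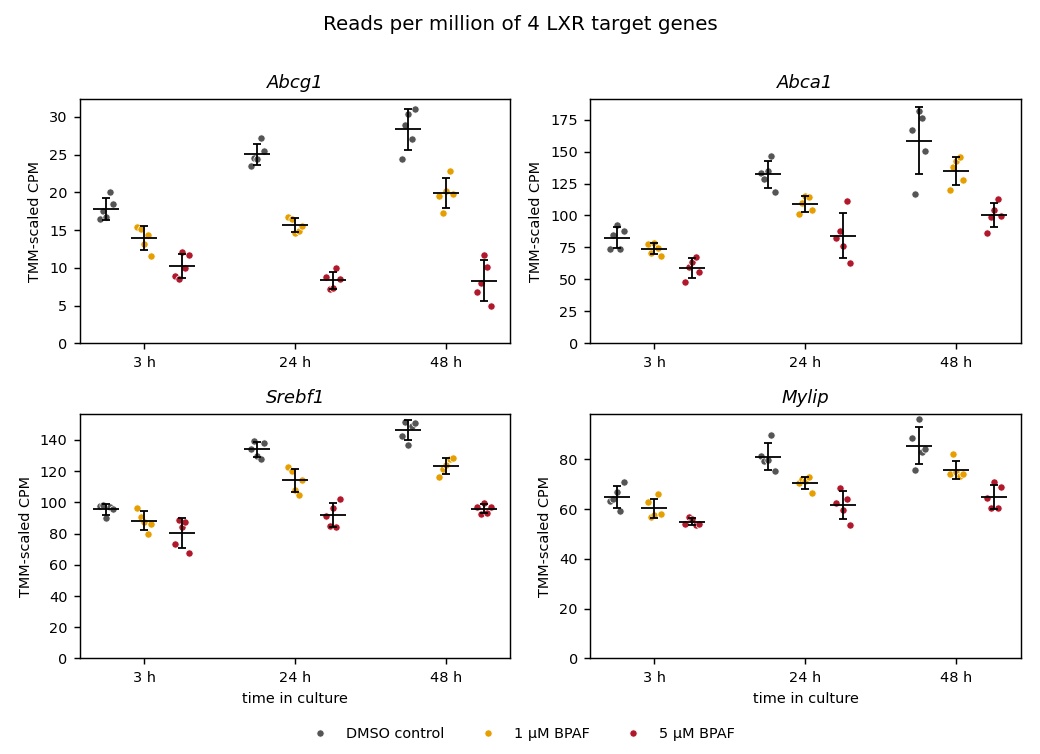
TMM-scaled CPM (vertical axis, from 0) of Abcg1, Abca1, Srebf1 and Mylip by time in culture (horizontal axis) for DMSO control, 1 µM and 5 µM BPAF. Points are libraries, and the black bar and whiskers are the mean ± SD of 5. For Abcg1 the controls averaged 17.8, 25.0 and 28.4 CPM at 3, 24 and 48 h, while the 5 µM libraries averaged 10.3, 8.34 and 8.33 CPM.

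At 5 µM the Abcg1 mean was 42.5% below the control at 3 h, 66.7% below at 24 h and 70.6% below at 48 h. The log2 fold changes of 5 µM against control were -0.79 ± 0.11 at 3 h, -1.59 ± 0.10 at 24 h and -1.79 ± 0.17 at 48 h (SE; edgeR adjusted p = 0.00193, 2.12e-06 and 2.62e-06, lower in 5 of 5 libraries each time). By p-value Abcg1 ranked 5 of 16651 genes at 3 h, 1 of 16433 at 24 h and 35 of 16345 at 48 h. Each of these comparisons shares its control libraries with the 1 µM comparison of the same time, and Abcg1 was picked on the low dose. Its p-value and rank at 24 h, the time at which edgeR called it at 1 µM, are not free of that choice.

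The estimated 5 µM effect on Abcg1 was larger at 24 h than at 3 h. The test of this difference uses the 24 h controls on which Abcg1 was picked, so its p-value is not free of that choice. The effect at 24 h minus that at 3 h was -0.78 ± 0.15 on the log2 scale (SE; edgeR adjusted p = 0.0136), and Abcg1 was the one gene of the 10 to pass this test, where 0.274% of 17535 genes passed in the lower direction. With the Y-linked signal as a covariate the value was -0.75 and its adjusted p 0.0554, and without control 3 h replicate 3, the control low in Y-linked reads, they were -0.77 and 0.0271. The 3 h fold change of Abcg1 itself was -0.82 without that library (edgeR adjusted p = 0.00468). From 24 to 48 h the further difference was -0.19 ± 0.21 (SE; edgeR adjusted p = 1), and none of the 10 genes passed, where 0.0693% of genes did. That comparison had 12 genes called by edgeR and 60 by DESeq2 of all tested, and 806 at an unadjusted p under 0.05. In CPM the controls gained Abcg1 between 3 and 24 h while the 5 µM libraries did not, as the levels above show.

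At 1 µM the Abcg1 mean was 21.8% below the control at 3 h, 37.4% below at 24 h and 29.8% below at 48 h. The log2 fold changes were -0.35 ± 0.10, -0.68 ± 0.08 and -0.51 ± 0.09 (SE), and -0.29 ± 0.10 at 3 h without replicate 5, the library with the conflicting label, when the mean was 18.5% below the control. Leaving out libraries low in Y-linked reads gave -0.39 at 3 h without 1 µM replicate 1 and -0.375 without control replicate 3. At 48 h it gave -0.46 without 1 µM replicate 2. At 24 h Abcg1 was the one gene of 16439 past the threshold, which is 0.00608% and is what selected it. Next by p-value among the 10 genes was Abca1, at -0.28 and rank 4 of all genes. It was not called, and it was called in 0 of 17 other settings.

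Abca1 encodes the transporter that loads cholesterol and phospholipid onto apolipoproteins, and at 5 µM it was lower at every time. At 3 h it had 47.9, 59.4, 64.0, 67.3 and 56.2 CPM at 5 µM, against 73.8, 84.9, 92.4, 74.0 and 88.2 CPM in controls. At 24 h it had 82.6, 88.2, 76.5, 111.4 and 62.8 CPM at 5 µM, against 133.3, 128.2, 134.5, 146.6 and 118 CPM in controls. At 48 h it had 86.3, 99.2, 104.4, 112.6 and 99.5 CPM at 5 µM, against 166.9, 116.7, 181.7, 176 and 150.3 CPM in controls. The groups did not overlap at any time, though 5 µM replicate 4 at 24 h and control replicate 2 at 48 h came close to the other group. How many of all genes were so separated at 5 µM was not counted, which also holds for the other genes followed. The log2 fold changes were -0.49 ± 0.08, -0.65 ± 0.12 and -0.67 ± 0.10 at 3, 24 and 48 h (SE; edgeR adjusted p = 0.0115, 0.0103 and 0.000285, lower in 5 of 5 libraries each time). At 3 h the adjusted p was 0.0666 with the Y-linked signal as a covariate and 0.043 without control replicate 3, where the fold change was -0.44.

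Abcg1 and Abca1 were thus the genes of the 10 called at 3 h, where 0.0661% of the 16651 genes tested were called lower at 5 µM. The median log2 fold change of the 10 was -0.16, beside 0.00 for all genes.

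Srebf1 encodes the transcription factor that drives fatty acid synthesis genes, and at 5 µM it was lower at 24 and 48 h. At 24 h it had 91.1, 85.0, 96.4, 84.3 and 102.1 CPM at 5 µM, against 134.4, 139.3, 129.9, 127.8 and 137.9 CPM in controls. At 48 h it had 97.2, 92.8, 99.6, 93.4 and 97.1 CPM at 5 µM, against 142.7, 151.5, 136.9, 148.9 and 150.9 CPM in controls. Both times the groups lay far apart, and at 48 h the 5 µM libraries were close together. The log2 fold change was -0.55 ± 0.07 at 24 h and -0.62 ± 0.05 at 48 h (SE; edgeR adjusted p = 0.000823 and 1.15e-06, lower in 5 of 5 libraries each). At 3 h it was -0.25 ± 0.07 and was not called (SE; edgeR adjusted p = 0.187). Srebf1 overlaps Rai1 on the other strand, the strand setting of the counting is not given in the sources used here, and the gene count does not separate its promoters.

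Mylip, also called Idol, encodes a ubiquitin ligase that limits cholesterol uptake, and it too was lower at 5 µM at 24 and 48 h. It averaged 61.7 ± 5.52 CPM at 5 µM and 81.1 ± 5.37 CPM in controls at 24 h, and 65.0 ± 4.89 CPM at 5 µM and 85.5 ± 7.51 CPM in controls at 48 h (SD, n = 5 each). The ranges did not overlap, with the highest 5 µM library at 68.4 and the lowest control at 75.2 CPM at 24 h, and 71.1 and 75.8 CPM at 48 h. The log2 fold changes were -0.40 ± 0.07 and -0.41 ± 0.07 (SE; edgeR adjusted p = 0.0122 and 0.000866). At 3 h it was -0.24 ± 0.05 and not called (SE; edgeR adjusted p = 0.0803).

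At 24 h, 4 of the 10 genes were lower, where 1.1% of the 16433 genes tested were, and the median of the 10 was -0.29, beside 0.00 for all genes. At 48 h, 6 of the 10 were lower, where 4.42% of 16345 genes were, and the median was -0.32, again beside 0.00. The counts include Abcg1, which was picked on a low-dose comparison that holds the 24 h controls. The 10 genes were also chosen with earlier results of these data known, so these counts and that at 3 h are a description.

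**Figure D2:**
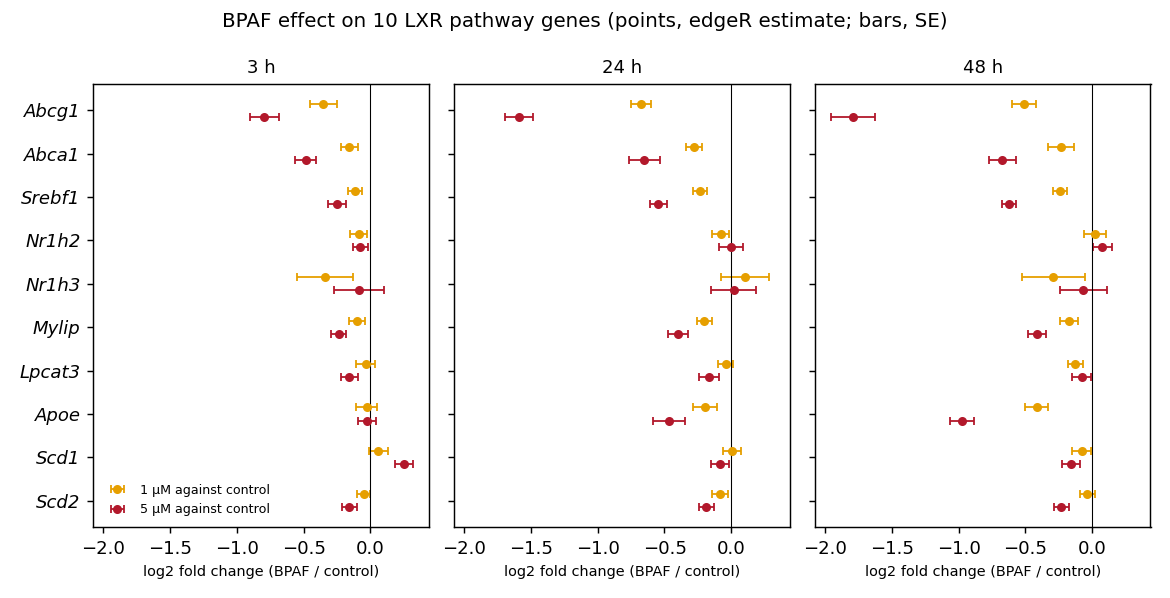
Log2 fold change of BPAF against control (horizontal axis) for the 10 genes (vertical axis) at 3, 24 and 48 h, at 1 µM and 5 µM. Points are edgeR estimates and bars are SE. Abcg1 is farthest left in each panel, at -1.79 for 5 µM at 48 h, while Nr1h2 lies at 0.08 there.

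Apoe and Scd2 joined the lower genes at 48 h. Apoe had 214.5, 283.4, 247.7, 265 and 263.4 CPM at 5 µM, against 434.1, 530.5, 561.7, 424.1 and 529.4 CPM in 48 h controls. Every 5 µM library was well below every control, and the log2 fold change was -0.98 ± 0.09 (SE; edgeR adjusted p = 2.36e-06). At 24 h Apoe averaged 170 ± 31.6 CPM at 5 µM and 234.8 ± 33.4 CPM in controls (SD, n = 5 each), with overlapping ranges. The difference of -0.47 ± 0.12 was not called (SE; edgeR adjusted p = 0.0708), and without replicate 5 of the 5 µM group it was -0.56, with an adjusted p of 0.00932. At 3 h it was -0.02 ± 0.07 (SE; edgeR adjusted p = 0.954).

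Scd2 and Scd1 encode desaturases that make monounsaturated fatty acids. Scd2 averaged 1069 ± 70.8 CPM at 5 µM and 1241 ± 46.5 CPM in controls at 48 h (SD, n = 5 each), a log2 fold change of -0.23 ± 0.06 (SE; edgeR adjusted p = 0.0199). This small difference was lost on leaving out control replicate 4 or 5 or 5 µM replicate 1, 2 or 3, with adjusted p between 0.0504 and 0.0735. Scd1 was not called at any time, at 0.25 ± 0.07, -0.09 ± 0.07 and -0.16 ± 0.07 at 3, 24 and 48 h (SE; edgeR adjusted p = 0.211, 0.699 and 0.188). The desaturase genes are close copies, and reads they share may be divided between them in ways not stated.

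Lpcat3, which puts polyunsaturated chains into membrane phospholipids, was not called at 5 µM, at -0.16 ± 0.06, -0.16 ± 0.07 and -0.08 ± 0.07 at 3, 24 and 48 h (SE; edgeR adjusted p = 0.502, 0.405 and 0.593). It overlaps Emg1 on the other strand. The receptor genes were not called either. Nr1h2 averaged 81.0 ± 3.05, 85.6 ± 12.0 and 85.6 ± 4.20 CPM at 5 µM at 3, 24 and 48 h, and 85.5 ± 7.44, 85.5 ± 7.80 and 80.4 ± 8.74 CPM in controls (SD, n = 5 each). Nr1h3 had 38 to 145 reads in a library and SE of the log2 fold change of 0.17 to 0.19 at 5 µM, so a modest change in it was not detectable at this depth.

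**Figure D3:**
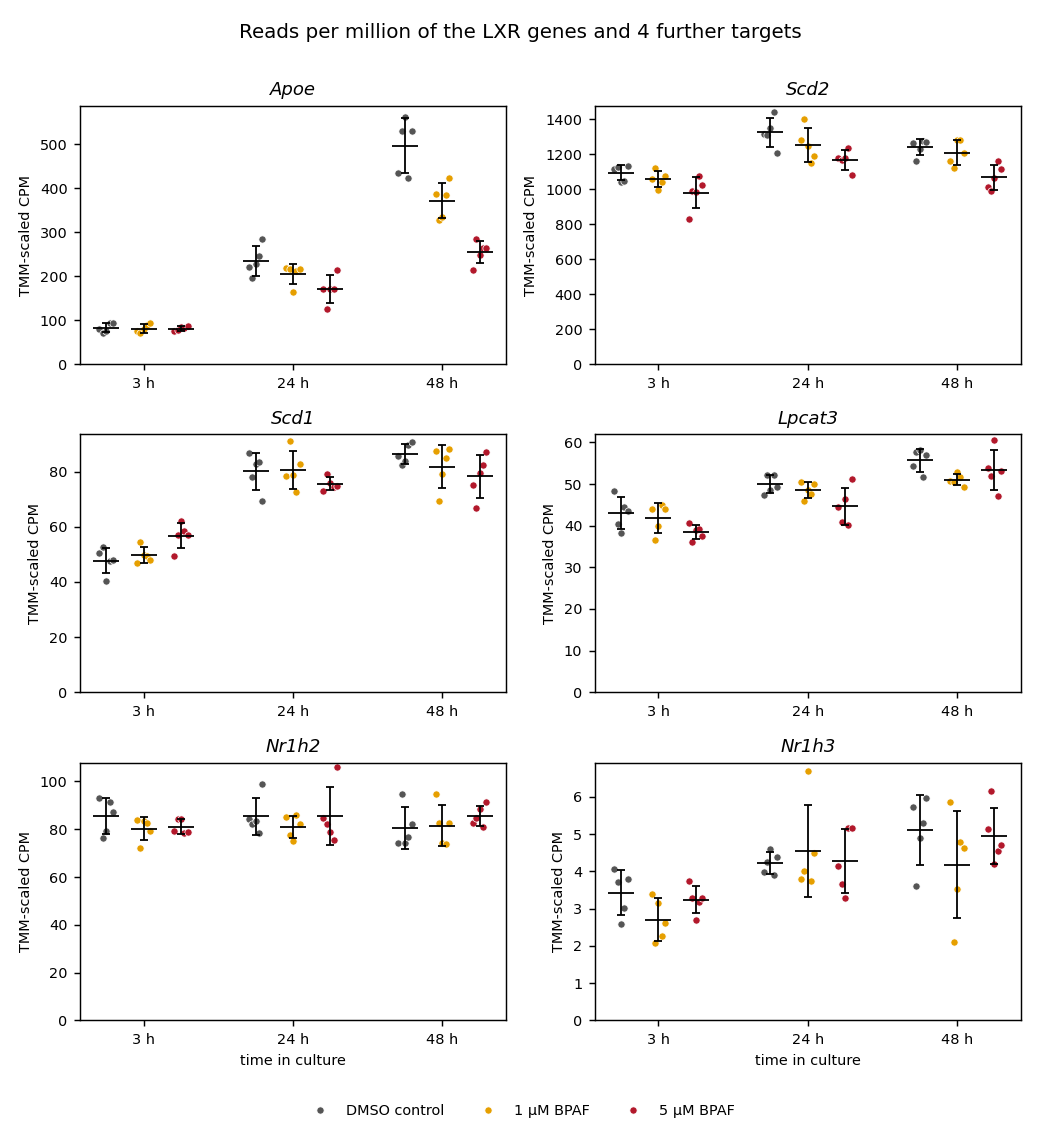
TMM-scaled CPM (vertical axis, from 0) of Apoe, Scd2, Scd1, Lpcat3, Nr1h2 and Nr1h3 by time in culture (horizontal axis) for DMSO control, 1 µM and 5 µM BPAF. Points are libraries, and the bar and whiskers are the mean ± SD of 5. Apoe climbs to 496 CPM in 48 h controls, against 254.8 CPM at 5 µM, while Nr1h2 stays between 80.3 and 85.6 CPM on average in every group.

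Each gene called at 5 µM had a smaller difference at 1 µM at the same time, and these are listed as values because Abcg1 was picked on this contrast. Where a gene was not called, the 1 µM value was in some cases the one farther from 0, for example for Nr1h3, which was at -0.34 with 1 µM, against -0.08 with 5 µM, at 3 h, and at -0.29, against -0.07, at 48 h. Lpcat3 at 48 h was at -0.13, against -0.08. With the times combined, Abcg1 was at -0.52 ± 0.05, Abca1 at -0.23 ± 0.05, Apoe at -0.22 ± 0.06, Srebf1 at -0.20 ± 0.03 and Mylip at -0.16 ± 0.04 on the log2 scale (SE). The combined values hold the libraries on which Abcg1 was picked, so nothing is read from the threshold, which 0.0111% of 18047 genes passed. All 10 values were negative, with Scd1 nearest to 0 at -0.01 and a median of -0.17, beside -0.002 for all genes. Without replicate 5 of the 3 h group, Abcg1 was at -0.51, Srebf1 at -0.20, Abca1 at -0.22, Apoe at -0.24 and Mylip at -0.16.

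At 48 h, 3 of the 10 genes, Abcg1, Srebf1 and Apoe, had every 1 µM library below every control, where 0.376% of 16479 genes did. The other 7 overlapped with the controls, and of their 1 µM libraries 0 of 5 for Abca1, 4 of 5 for Mylip and 2 of 5 for Scd2 lay below the lowest control. At 24 h Abcg1, Abca1, Srebf1 and Mylip had every 1 µM library below every control, and the rest of the genes followed overlapped. At 3 h Abcg1 alone did not overlap. The share over all genes was not counted at those times. Abcg1 was picked on the low dose, so all of this is a description. Srebf1 at 48 h had 115.9, 121.5, 123.8, 127.7 and 128.2 CPM at 1 µM, all below the lowest control at 136.9 CPM. Apoe at 48 h had 387.8, 327.9, 335.6, 385.1 and 423.3 CPM at 1 µM, with its highest library just under the lowest control at 424.1 CPM. No gene was called by edgeR at 3 h or 48 h (0% of 16631 and 16479 genes), where 424 and 621 had an unadjusted p under 0.05 and DESeq2 called 0 and 6.

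The BPAF doses were also compared directly, without the controls. The 1 µM libraries of 24 h are those on which Abcg1 was picked, so its p-value at 24 h is not free of that choice. At 3 h none of the 10 genes was called in the main fit, which was not paired, where 0.036% of 16681 genes were called in either direction. That comparison had 6 genes called by edgeR and 40 by DESeq2, and 989 at an unadjusted p under 0.05. Without replicate 5 at 1 µM, 4 genes and 0 of the 10 were called, with Abcg1 at -0.51 and Abca1 at -0.36. Same-numbered libraries deviated together in it, and a fit blocked on that number called Abca1, at -0.33 (edgeR adjusted p = 0.00589). At 24 h Abcg1 was lower at 5 µM than at 1 µM by a log2 difference of -0.92 ± 0.11 and Srebf1 by -0.32 ± 0.07 (SE; edgeR adjusted p = 0.000513 and 0.0279), where 0.946% of genes were lower. The call of Srebf1 was lost on leaving out 1 µM replicate 1, 2, 4 or 5 or 5 µM replicate 1, 2 or 4, with adjusted p between 0.0574 and 0.104.

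At 48 h, 5 of the 10 genes were lower at 5 µM than at 1 µM, where 3.77% of 16349 genes were. Abcg1 was at -1.28 ± 0.17, Apoe at -0.56 ± 0.08, Abca1 at -0.44 ± 0.07, Srebf1 at -0.38 ± 0.05 and Mylip at -0.23 ± 0.06 (SE; edgeR adjusted p = 0.000119, 0.000201, 0.000742, 7.77e-05 and 0.0276). The Mylip call was lost on leaving out 1 µM replicate 2, 3 or 5 or 5 µM replicate 1, 2 or 4, with adjusted p between 0.0505 and 0.0882. With the Y-linked signal as a covariate it was 0.0824. Without 1 µM replicate 2, the library low in Y-linked reads, Abcg1 was at -1.32 (edgeR adjusted p = 0.000227).

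Further genes reported elsewhere as liver X receptor targets were mostly not called. Of all genes, 0.0661% were lower at 5 µM at 3 h, 1.1% at 24 h and 4.42% at 48 h, and 2.74% were higher at 48 h. These shares stand beside the counts of this and the following lists. At 5 µM, 0 of 13 tested were called at 3 h and 24 h, and 2 of 12 were lower at 48 h. These were Apoc1, a lipoprotein component, at -2.60 ± 0.41, and Lpl, the lipase that frees fatty acids from lipoproteins, at -0.34 ± 0.09 (SE; edgeR adjusted p = 0.000457 and 0.0199). Their median log2 fold change was 0.08 at 3 h, -0.17 at 24 h and -0.16 at 48 h. Counts of 0 are edgeR's, from tests in which 1424 genes at 3 h and 1902 at 24 h had an unadjusted p under 0.05, and DESeq2 called 133 and 556 of all genes.

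Fatty acid synthesis genes downstream of the Srebf1 product were mostly not called. At 5 µM, 0 of 13 were called at 3 h, 1 was lower at 24 h, and 1 was higher and 2 lower at 48 h, with medians of -0.004, -0.03 and 0.03. Acsl3, which activates fatty acids, was at -0.26 ± 0.06 at 24 h and -0.36 ± 0.06 at 48 h, and Mid1ip1, a helper of acetyl-CoA carboxylase, at -0.42 ± 0.11 at 48 h (SE; edgeR adjusted p = 0.0496, 0.000414 and 0.0331). Me1, which supplies NADPH, was higher at 48 h, at 0.46 ± 0.08 (SE; edgeR adjusted p = 0.00165). Fasn, named here because its promoter window held the motif, was at -0.08 ± 0.05, -0.09 ± 0.06 and -0.14 ± 0.05 at 3, 24 and 48 h (SE; edgeR adjusted p = 0.701, 0.615 and 0.151).

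Cholesterol synthesis genes and Srebf2, their main activator, had 0 of 26 called at 5 µM at 3 h and 24 h. At 3 h 25 of the 26 values were positive, with a median of 0.20, and at 24 h and 48 h the medians were 0.07 and 0.04. Cyp51, a sterol demethylase, was called at 48 h, at 0.25 ± 0.06 (SE; edgeR adjusted p = 0.019). Genes that make or break down oxysterols had 0 of 8 called at 3 h and 0 of 7 at 24 and 48 h, where 3153 of all genes had an unadjusted p under 0.05 at 48 h and DESeq2 called 1580. Of 14 receptor partners and coregulators, Rxrg, a retinoid X receptor also expressed in muscle, was the one called, at -0.57 ± 0.09 at 48 h (SE; edgeR adjusted p = 0.000648).

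Among genes of cholesterol storage and movement, 2 of 12 were lower at 48 h, where 4.42% of all genes were, and 0 were called earlier. These were Scarb1, a receptor for high-density lipoprotein, at -0.32 ± 0.09, and Gramd1b, which carries cholesterol from the cell membrane inward, at -0.58 ± 0.10 (SE; edgeR adjusted p = 0.0343 and 0.00116). Among 11 other tested transporters of the ABCA and ABCG families, 3 were lower at 48 h, beside the same 4.42%, and 0 were called earlier. Abca6 was at -2.31 ± 0.37, Abca8a at -1.08 ± 0.18 and Abca9 at -0.56 ± 0.14 (SE; edgeR adjusted p = 0.00058, 0.000861 and 0.0185).

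**Figure D4:**
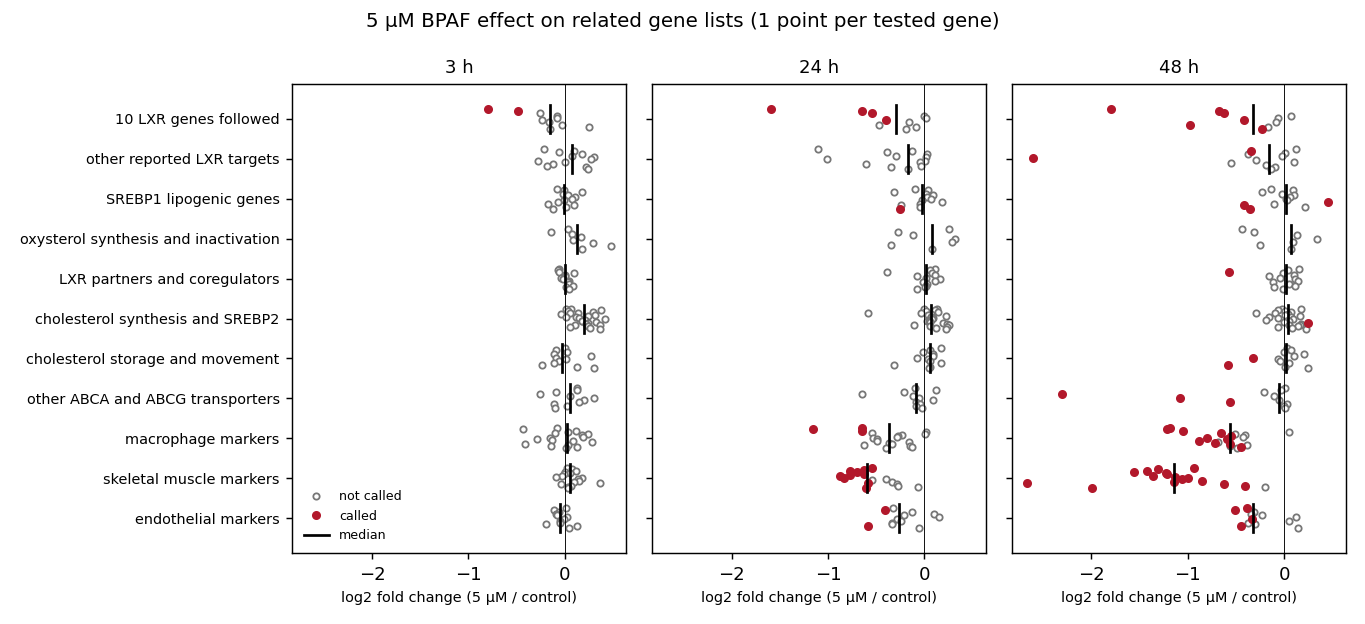
Log2 fold change of 5 µM BPAF against control (horizontal axis) for the genes of 11 lists (vertical axis) at 3, 24 and 48 h. Each point is a tested gene, filled where called by edgeR, and the vertical bar is the list's median. At 48 h the medians of macrophage and skeletal muscle markers lie at -0.57 and -1.14, and that of the 10 genes followed at -0.32.

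Markers of cell types moved over the same times. Macrophages express several of the genes followed, and at 3 h 0 of 18 macrophage markers were called at 5 µM, with a median of 0.02. Their summed level at 3 h was 107 to 130 CPM at 5 µM, against 118 to 140 CPM in controls. At 24 h 3 of 19 were lower (median -0.37), with sums of 141 to 228 CPM at 5 µM, against 220 to 288 CPM in controls. At 48 h 11 of 19 were lower (median -0.57), with sums of 241 to 291 CPM at 5 µM, against 349 to 467 CPM in controls. Of the 20 markers listed, Cd163 had a median of 0 CPM over all libraries and Itgam reached 0 CPM in some. The other markers, among them Csf1r, Lyz2 and C1qa, were detected in all.

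The macrophage genes called at 24 h were Cx3cr1, a chemokine receptor, at -1.16 ± 0.19, Lyz2, a lysozyme, at -0.64 ± 0.12 and Csf1r, the receptor macrophages need to survive, at -0.65 ± 0.14 (SE; edgeR adjusted p = 0.00542, 0.0117 and 0.0339). At 48 h those with the smallest p were Lyz2 at -1.05 ± 0.10, Csf1r at -1.19 ± 0.12, the complement gene C1qa at -0.80 ± 0.10 and Cx3cr1 at -1.22 ± 0.16 (SE; edgeR adjusted p = 3.11e-06, 5.63e-06, 7.89e-05 and 8.17e-05).

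Among skeletal muscle markers 0 of 17 were called at 3 h, 10 of 16 were lower at 24 h and 16 of 17 at 48 h, with medians of 0.05, -0.60 and -1.14. At 24 h the muscle genes with the smallest p were Myh3, Tnnt3, Casq2 and Mylpf, at -0.78, -0.88, -0.59 and -0.78 (edgeR adjusted p = 5.48e-05, 0.000119, 0.000823 and 0.000855). At 48 h they were Pax7, a gene of muscle stem cells, at -1.99, and the fibre genes Ryr1, Neb and Tnnt3 at -0.85, -0.996 and -1.36 (edgeR adjusted p = 1.06e-07, 7.49e-07, 1.03e-06 and 1.15e-06). Muscle sums at 48 h were 2510 to 3050 CPM at 5 µM, against 4780 to 7480 CPM in controls. Endothelial markers had 0, 2 and 4 of 12 lower at 3, 24 and 48 h, namely Flt1 and Cdh5 at -0.58 and -0.41 at 24 h, and Cdh5, Pecam1, Flt1 and Esam at -0.51, -0.38, -0.44 and -0.34 at 48 h (edgeR adjusted p = 0.0165 and 0.0198 at 24 h, and 0.000735, 0.0199, 0.0301 and 0.0417 at 48 h). In the lists of erythroid, keratinocyte, Schwann cell and limb mesenchyme markers the genes called at 48 h were Hba-a1, Krt15, Epcam and Erbb3, lower at -0.49, -0.99, -0.49 and -0.62, and Hoxd13, higher at 0.23 (edgeR adjusted p = 0.0396, 0.0116, 0.028, 0.000206 and 0.033), and 0 were called earlier. Of 10 adipocyte genes, 2 at 3 h, 3 at 24 h and 4 at 48 h passed the low-count filter, and 0 were called at 5 µM. Their sums at 48 h were 32.9 to 42.1 CPM at 5 µM, against 24.6 to 35.4 CPM in controls, and most of these reads came from Cebpa, a transcription factor gene found at 11.9 to 35.6 CPM. Pparg reached 4.78 CPM, Fabp4 4.18 CPM, Plin4 1.33 CPM and Cidec 1.13 CPM, while Adipoq, Plin1, Lep, Retn and Cfd stayed below 1 CPM in every library. The part of these cell type markers in the 3, 24 and 48 h results was not tested.

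Of 12822 genes compared, those whose dose pattern was most like that of Abcg1 were Srebf1 (r = 0.89), Cx3cr1 (0.862), Npnt (0.852), Klhl13 (0.843), Myom2 (0.838) and Atp1b4 (0.835). The measure was Pearson's r over 45 libraries of log2 CPM after the mean of the controls of the same time was taken away. Of the genes followed, Abca1 ranked 8 (0.826), Mylip 16 (0.813), Apoe 72 (0.767), Scd2 201 (0.695), Lpcat3 1348 (0.385) and Scd1 2326 (0.266), while Nr1h3 was at -0.045 and ranked 6592 and Nr1h2 was at -0.174 and ranked 8773. Cx3cr1 is a macrophage marker and Myom2 a muscle gene. All genes share these libraries and their groups, so these r values are a description.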

How the data were processed

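Poly-A RNA of 45 libraries was analysed from 9 deposited tables, each holding a pair of groups. The authors deposited, per the file headers, unnormalized counts of reads for each gene, a size-factor normalized signal, FPKM, and their log2 fold change with its p-value and adjusted p-value. Only the counts were tested here, and the log2 values and p-values that the authors deposited are not reported here. The submitters' processing notes name build mm10 and, as tools, DESeq2, HTSeq 0.6.1, STAR 2.5 and CASAVA 1.8. Roles, filters and strand setting are not given in the sources used here. A gene absent from every table that holds a library was read as 0 there (11.7% of gene and library combinations). Genes present in a table had at least 2 reads in it over its libraries, and the reads of absent genes are not known.

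Counts were joined by gene identifier. Each comparison used its own libraries in edgeR 4.0.16 (R 4.3.3), filtered by filterByExpr (minimum count 10, total 15), with TMM scaling and the quasi-likelihood test. Interactions used 4 groups and the 1 µM effect over times used time as a covariate. On simulated counts for 5 µM against control at 24 h (16210 genes), 59% of genes changed by a log2 of 0.5 and 86% of those changed by 1 were called. DESeq2 1.42.0 and limma 3.58.1 gave alternatives. Same-numbered libraries of the 1 µM and control groups at 24 h, and of the 5 µM and 1 µM groups at 3 h, deviated together in all 5 pairs (r from 0.14 and 0.191 up). The main values are nonetheless from fits without pairs, and the block on the number is an alternative.

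The 10 genes, gene lists and tests were chosen with earlier results of these data known. All 10 are named. Of each list, up to 4 called genes with the smallest p were named in each 5 µM comparison, along with the 6 genes most like Abcg1. Fasn, Tbx5, Pitx1, Tbx4, the adipocyte genes and the macrophage genes given by detection were added after their values were seen. Likeness used log2(CPM + 0.5) for genes with a mean of at least 2 CPM, leaving out Gm, LOC and Rik names. Promoter sequences are from RefSeq, and 7 of the 10 genes were in that table. Apoc2 and Cyp7a1 of the lists were not analysed here.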

Additional observations from a re-analysis of the deposited data

Results flagged for a closer look

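A library far from the other 4 of its group was found in 4 of 90 groups of the 10 genes, where chance gives about 1 in 20. Srebf1 in control 3 h replicate 3 was 89.7 CPM, with the nearest library at 95.9 CPM, and this library also had 0.1 CPM of Y-linked reads. Mylip in 1 µM 48 h replicate 2 was 82.2 CPM, with the nearest at 74.8 CPM, and it too was low in Y-linked reads, at 0.16 CPM. Replicate 3 of 1 µM at 24 h stood apart for Nr1h3, at 6.69 CPM with the nearest at 4.50 CPM, and for Apoe, at 164.3 CPM with the nearest at 211.3 CPM. The part of the Y-linked signal in these values was not tested.

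The 5 µM effect on Abcg1 differed between 24 h and 3 h by -0.78 on the log2 scale, by a test of the difference itself (edgeR adjusted p = 0.0136). That test uses the 24 h controls on which Abcg1 was picked, so its p-value is not free of that choice. The treated libraries averaged 10.3 CPM at 3 h and 8.34 CPM at 24 h, and the controls 17.8 and 25.0 CPM.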

How the results depend on the processing

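The alternatives were DESeq2, limma-voom, other size factors, no low-count filter, all libraries in one fit, a Y-linked covariate, a replicate block (also by library code), leaving out the 24 h pair highest in haemoglobin reads, and leaving out each library. No value of the 10 genes that was called reversed. By other settings 1047 values were kept, 28 gained a call and 5 lost one, and on leaving out 1 library these numbers were 1869, 11 and 20. Kept means the same side of the threshold. For Abcg1 at 1 µM it instead means a fold change that moved by less than the SD of log2 CPM in controls. At 5 µM Abcg1 was called in 17 of 17 settings at 3 h, 18 of 18 at 24 h and 17 of 17 at 48 h, with log2 fold changes of -0.86 to -0.74, -1.65 to -1.54 and -1.94 to -1.64. Apoe at 24 h was called in 7 of 18.

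The number of the 10 genes called changed as follows; the cause was not tested. At 5 µM and 3 h (2 called), DESeq2 gave 4, adding Srebf1 and Mylip, and the Y-linked covariate gave 1. Leaving Abcg1 aside, 1 µM gave 2 by DESeq2 at 48 h (0 called), and with times combined (1 called) 3 by DESeq2 and 1 to 3 on leaving out a library: 2 without 1 µM 3 h replicate 4 or control 3 h replicate 4, and 3 without control 48 h replicate 2. For 5 µM against 1 µM at 3 h (0 called), DESeq2, no low-count filter and the replicate block each gave 1, Abca1. At 24 h (2 called), no low-count filter, the block and one fit each gave 3, adding Abca1, and leaving out a library gave 1 to 3. At 48 h (5 called), DESeq2, limma-voom, both blocks and one fit gave 6, adding Scd2, and the Y-linked covariate gave 5, with Scd2 in place of Mylip. For controls at 48 h against 24 h (1 called), the block and the Y-linked covariate gave 2, as did leaving out control 48 h replicate 2 (range 1 to 2), adding Abca1. For the 24 h minus 3 h effect (1 called), the block gave 2, adding Apoe, and the Y-linked covariate 0. The remaining ranges on leaving out a library were 2 to 3, 4 to 5 and 5 to 6 at 5 µM at 3, 24 and 48 h, 4 to 5 for 5 µM against 1 µM at 48 h, and 7 to 8 for controls at 24 h against 3 h, where Lpcat3 was lost without control 3 h replicate 3 (adjusted p = 0.055) or control 24 h replicate 2 (0.0589).

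For 5 µM against control at 24 h, 4 of 5 same-numbered pairs deviated together at r over 0.1 (median 0.267). There the block called Apoe (edgeR adjusted p = 9.45e-05) and Scd2 (0.0313). Over all genes, calls at 5 µM were 30 at 3 h (62 with the block, 133 by DESeq2, 15 without 5 µM replicate 2), 258 at 24 h (655 with the block, 556 by DESeq2, 109 without 5 µM replicate 1) and 1171 at 48 h (912 to 1680). For 5 µM against 1 µM they were 6 at 3 h (50 with the block, 1 without 1 µM replicate 4), 196 at 24 h (95 to 553) and 974 at 48 h (718 to 1618). For the effect differences they were 59 (30 to 161) and 12 (2 to 60). At 1 µM and 24 h they were 1 (2 with the block). Nr1h3, at 38 to 145 reads a library, is the gene whose precision depth limits most.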
